A study of Mus musculus with 12 samples.

Results

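The genes described here are 42 components of the vesicle traffic between the endoplasmic reticulum (ER) and the Golgi: the COPII and COPI coats, the GTPases and fusion proteins that serve them, the KDEL receptors and the cargo receptors. They were listed by name, with earlier results of these data known. All 42 were found among the 22180 genes that the array measured with a probe set carrying a single gene symbol. Where a gene had several such probe sets (6 of the 42), the one with the highest mean over all arrays was used.

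COPII-coated vesicles carry newly folded proteins out of the ER, and COPI-coated vesicles return escaped ER residents and machinery from the Golgi. Both coats assemble on membranes when a small GTPase, Sar1 for COPII and Arf1 for COPI, is loaded with GTP. SEL1L is the scaffold of the HRD1 ubiquitin ligase complex, which removes misfolded proteins from the ER, and brown fat is the heat-producing adipose tissue that small mammals use in the cold.

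The study measured RNA from mouse brown adipose tissue on 12 gene arrays in 4 groups of 3, and the titles name 1 mouse for each array. All mice were on the C57BL/6J background, carried floxed Sel1L alleles (Sel1L f/f) and were fasted for 5 h. The knockout group (Sel1LAdipCre) also carried Adiponectin-Cre, which is active in fat cells, and the controls were Sel1L f/f littermates. Each genotype was kept either at room temperature or at 4 °C during the fast. Cells of the tissue other than adipocytes keep Sel1L, and a change in the share of a cell type cannot be told apart from a change of RNA per cell. By the sample labels the RNA is from the tissue, and by the series' design text from adipocytes isolated from it. The labels give neither age nor sex.

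The values are deposited log2 intensities, so a difference of 1 is a doubling. The brown adipocyte genes Ucp1 (12.38 to 12.83), Cidea (11.59 to 11.89) and Adipoq (7.69 to 8.30) were high on all 12 arrays. At room temperature Sel1l itself was at 7.37, 6.96 and 7.23 in controls and at 6.18, 6.09 and 5.92 in knockouts, a difference of -1.12 ± 0.14 (SE; adjusted p = 0.00114). The arrays at 4 °C gave 6.99, 6.69 and 7.04 for controls and 6.90, 6.73 and 6.54 for knockouts, a difference of -0.19 ± 0.14 (adjusted p = 0.605). At 4 °C against room temperature Sel1l was higher in knockouts by 0.66 ± 0.14 (adjusted p = 0.0125) and differed in controls by -0.28 ± 0.14 (adjusted p = 0.28). The interaction of genotype and cold was 0.94 ± 0.20 (adjusted p = 0.0862), and its cause was not tested. By Sel1l the groups lay apart at room temperature and overlapped at 4 °C, and the arrays are called "labelled knockout" throughout. Hspa5, the gene of the ER chaperone BiP, did separate by label at 4 °C, at 7.13 to 7.31 in controls and 9.68 to 10.21 in labelled knockouts, a difference of 2.71 ± 0.14 (adjusted p = 1.9e-07). Control array 3 at room temperature is so named by its title and its temperature entry, while its source name says 4 °C. Of 2139 probe sets that differed with cold among the other control arrays, 1770 (82.7%) lay nearer to room temperature on it, and it was kept in that group.

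Transport genes were higher in the labelled knockouts at both temperatures. At room temperature 25 of the 42 (59.5%) were higher and 0 were lower at an adjusted p under 0.05, where 1.29% of all 23521 probe sets tested were higher and 0.429% were lower. At 4 °C 33 of 42 (78.6%) were higher and 0 were lower, where 3.61% of all probe sets were higher and 2.19% were lower. Their median difference was 0.78 at room temperature and 1.08 at 4 °C, against -0.01 over all probe sets in each case. Because the list was chosen with earlier results of these data known, these shares describe it and are not an independent test. All 25 genes called at room temperature were called at 4 °C too, and Sec16a, Sec24a, Bet1, Stx5a, Copz1, Tmed2, Lman2 and Mcfd2 were called at 4 °C alone, which is not a test of a difference between temperatures. Without the array of conflicting labels 22 genes were higher at room temperature, and 20 when it was moved to the 4 °C group. Of the 42 genes 0 lay below the median of all values. The shares over all probe sets, here and in later comparisons, include dimmer ones and were not matched for brightness.

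The mean over the 42 genes lay between 6.80 and 6.85 on the control arrays at room temperature and between 6.90 and 6.98 on those at 4 °C. It lay between 7.55 and 7.75 on the labelled knockout arrays at room temperature and between 7.96 and 8.01 on those at 4 °C. In 37 of 42 genes all 3 labelled knockout arrays at room temperature lay above all 3 controls, which held for 8.76% of all probe sets. At 4 °C this was so for 36 of 42, against 11.2% of all probe sets.

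**Figure D1:**
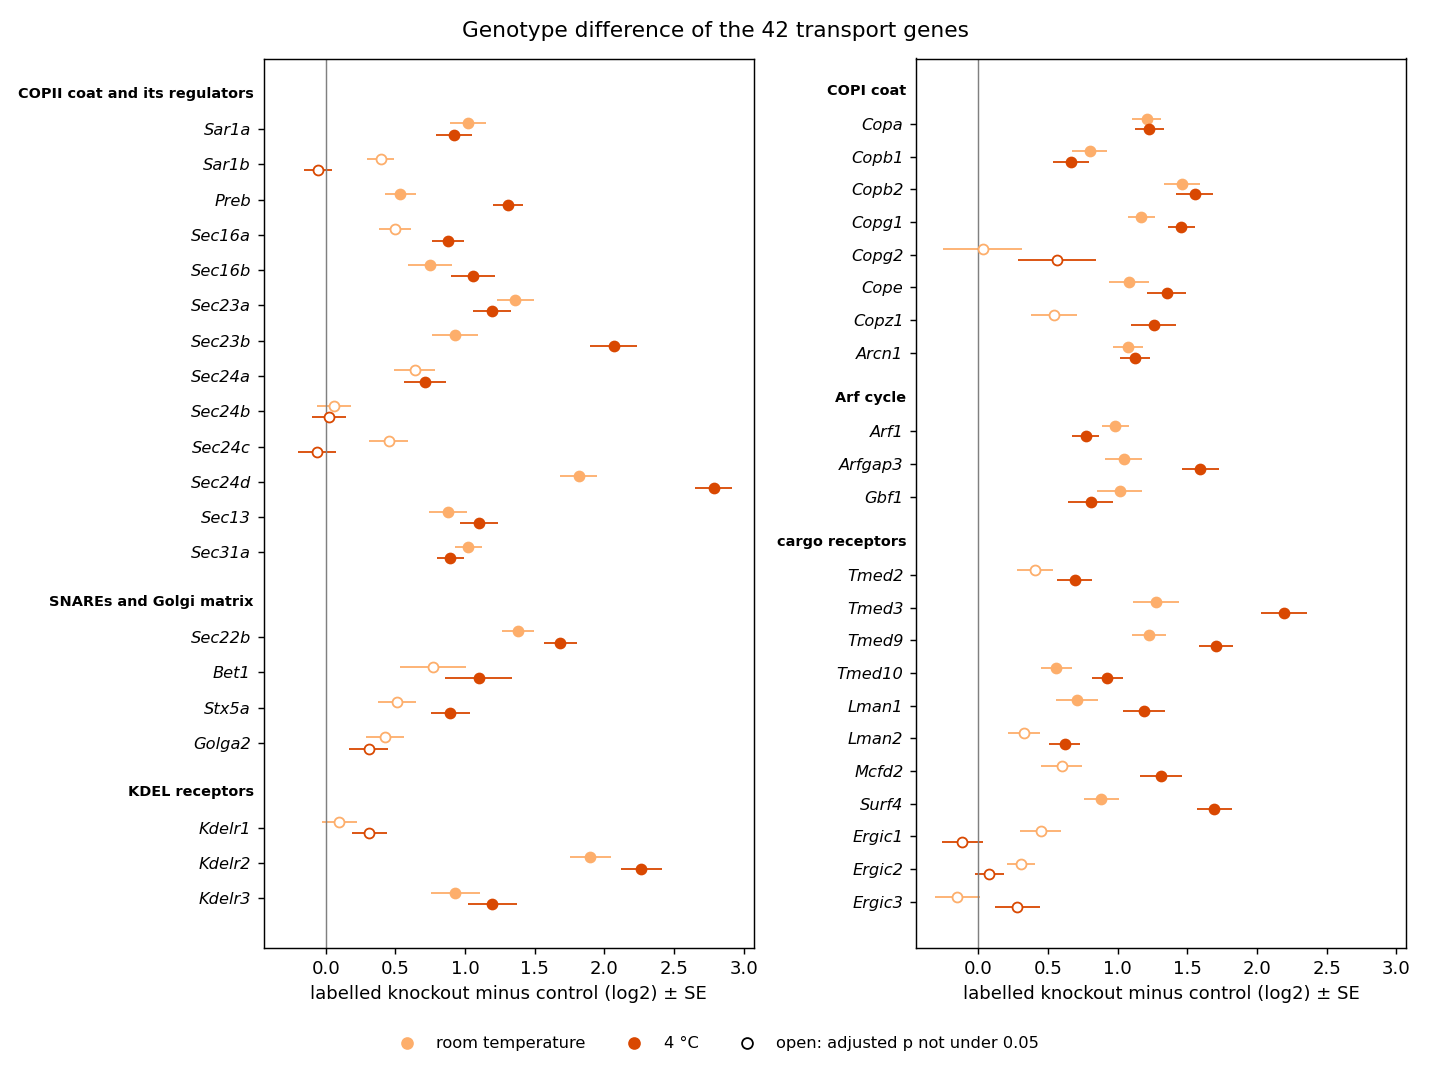
Difference between labelled knockout and control arrays (log2, with its SE) for each of the 42 transport genes, grouped by role, at room temperature and at 4 °C (n = 3 arrays a group). Filled points have an adjusted p under 0.05: 25 genes at room temperature and 33 at 4 °C, all to the right of 0.

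Skeletal muscle RNA varied between arrays alongside these differences. The mean log2 level of 19 measured muscle markers of 19 listed ranged from 6.18 to 7.12 in controls and from 2.65 to 6.13 in labelled knockouts at room temperature, and from 4.54 to 7.69 and 2.32 to 6.43 at 4 °C. None of these markers lay below its array's median. At room temperature all 19 were lower in labelled knockouts, with a median difference of -2.30 (-3.71 to -1.36), so muscle level and genotype went together there. At 4 °C the median difference was -1.01, and 1 of 19 was above 0. The arrays scattered, and 0 of 19 was called in either comparison of genotype. With this muscle level as a covariate, 18 transport genes were higher at room temperature and 33 at 4 °C. Genes called at room temperature without the covariate and not with it were Preb, Sec16b, Sec23b, Copb1, Gbf1, Kdelr3, Tmed10 and Lman1, and Sec24a was called with it alone. Plasma cells, which are rich in secretory machinery, left little signal: the mean of 9 measured B and plasma cell markers of 10 listed ranged from 2.17 to 2.67 over the 12 arrays, near the array medians of 2.03 to 2.09.

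The 8-letter core of the unfolded protein response element, TGACGTGG, to which XBP1 and ATF6 can bind, lay in the promoters of several of these genes. Promoters were taken from RefSeq on build GRCm38.p6 as the 250 bases before to 50 after each start, and were searched on both strands. Of the 42 genes 38 had such a promoter and Arcn1, Kdelr2, Lman1 and Tmed2 had none in the table. The 38 genes had 43 promoters, and a match in any promoter counted for its gene. The core was found in 9 of 38 (23.7%), against 193 of 27025 genes (0.714%) with a promoter. Each is printed with 11 bases on either side, on the strand where the core reads forward and with the core in capitals, because these windows show which members hold it.
Sec24d, chr3:123267459-123267488, plus strand: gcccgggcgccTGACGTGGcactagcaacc
Sec23a, chr12:59011993-59012022, minus strand: ctcctccccttTGACGTGGcagaggcggca
Sec16b, chr1:157506741-157506770, plus strand: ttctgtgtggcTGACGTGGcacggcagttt
Stx5a, chr19:8741422-8741451, minus strand: tcctaactcggTGACGTGGctgctgcgcca
Copb1, chr7:114254690-114254719, plus strand: aagtccttggcTGACGTGGaagggggcggg
Copb2, chr9:98563713-98563742, minus strand: ggccaacccacTGACGTGGaacttccggga
Arf1, chr11:59228228-59228257, minus strand: gcggcaggcgcTGACGTGGctgccgtcagc
Gbf1, chr19:46152535-46152564, minus strand: tgtcagctcacTGACGTGGtaactagcctc
Kdelr3, chr15:79516367-79516396, minus strand: tggccgcgcggTGACGTGGcggggcggcca
Read along the gene, the core began 7 to 44 bases before the start in Sec24d, Sec16b, Copb1, Copb2, Gbf1 and Kdelr3. It began 6 to 21 bases after the start in Arf1, Sec23a and Stx5a. The core has 8 bases, so in Copb2, where it began 7 bases before the start, it reached the start. A match describes the letters and shows no binding, and the share over all genes was not matched for base content.

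Among the 9 genes with the core, 8 were higher at room temperature and 9 at 4 °C, with median differences of 0.98 and 1.06. Among the 29 whose promoters lacked it, 14 and 20 were higher, with medians of 0.60 and 0.93. The shorter sequences ACGTG, part of the core, and CCACG, which overlaps the core on its other strand, lay in 24 (63.2%) and 29 (76.3%) of the 38, against 21.8% and 35.5% of all genes with a promoter. The 9 genes with the core are counted in both, and these shares too were not matched for base content. The ER stress response element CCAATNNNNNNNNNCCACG and its second form, ATTGG and CCACG with 1 base between them, were in none of the 38 genes' promoters, against 0.137% and 0.0444% of all genes. Sequences this rare would be missing from most sets of 38 genes, so nothing is read from their absence.

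COPII forms in order: PREB, the exchange factor, loads SAR1; SEC16 marks the exit site; SEC23 and SEC24 form the inner layer, with SEC24 choosing the cargo; SEC13 and SEC31 build the cage. Of these 13 genes, 8 were higher in labelled knockouts at room temperature (median 0.75) and 10 at 4 °C (median 0.92). Sec24d had the largest difference of all 42 genes at 4 °C. It read 5.51, 5.36 and 5.58 in controls and 7.10, 7.38 and 7.40 in labelled knockouts at room temperature, and 6.28, 6.37 and 5.96 against 8.90, 9.10 and 8.96 at 4 °C. Every labelled knockout array lay above every control array. The difference was 1.81 ± 0.13 at room temperature (3.52-fold, adjusted p = 1.2e-05) and 2.78 ± 0.13 at 4 °C (6.89-fold, adjusted p = 1.46e-07).

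The other SEC24 paralogs did not share that size. Sec24a read 7.15, 6.97 and 7.01 in controls and 7.62, 7.77 and 7.65 in labelled knockouts at room temperature. At 4 °C it was 7.70, 7.63 and 7.84 against 8.07, 8.75 and 8.49, higher by 0.71 ± 0.15 (adjusted p = 0.0138) without overlap. This call was lost when any of 4 single arrays was left out, with an adjusted p of up to 0.0581 without the second labelled knockout array at 4 °C. At room temperature its difference was 0.64 ± 0.15 (adjusted p = 0.0537). Sec24b read 6.34, 6.41 and 6.40 against 6.19, 6.54 and 6.60 at room temperature and 6.36, 6.24 and 6.33 against 6.43, 6.40 and 6.16 at 4 °C. Its groups overlapped at both temperatures, with differences of 0.06 (95% interval -0.21 to 0.33) and 0.02 (-0.25 to 0.29). Sec24c read 7.59, 7.32 and 7.60 against 8.07, 8.06 and 7.73 at room temperature, and 8.23, 8.05 and 7.83 against 8.07, 7.94 and 7.91 at 4 °C. Its groups stood apart at room temperature and overlapped at 4 °C. Sec24c differed by 0.45 ± 0.14 at room temperature (adjusted p = 0.151) and by -0.06 ± 0.14 at 4 °C (adjusted p = 0.896).

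Sec23a and Sec23b, which encode interchangeable forms of the GTPase-activating subunit, were both higher. Sec23a rose from 6.32, 6.33 and 6.53 to 7.59, 8.07 and 7.61 at room temperature, by 1.36 ± 0.14 (adjusted p = 0.000138). At 4 °C it was 6.71, 6.62 and 6.84 against 7.98, 7.96 and 7.81, higher by 1.19 ± 0.14 (adjusted p = 0.000133). The second form was the dimmer probe set. Sec23b read 4.46, 4.82 and 4.93 in controls and 5.35, 5.73 and 5.91 in labelled knockouts at room temperature, a difference of 0.93 ± 0.17 (adjusted p = 0.013). At 4 °C it read 4.67, 4.44 and 4.57 against 6.71, 6.77 and 6.40, a difference of 2.07 ± 0.17 (4.19-fold, adjusted p = 6.46e-06). Neither gene's groups overlapped. The room temperature call of Sec23b was lost when any of 3 single arrays was left out, with an adjusted p of up to 0.0567 without the first control array at room temperature.

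Of the GTPase genes, Sar1a was 8.15, 8.34 and 8.18 in controls and 9.01, 9.47 and 9.24 in labelled knockouts at room temperature, higher by 1.02 ± 0.13 (adjusted p = 0.00101). At 4 °C it was 8.50, 8.78 and 8.61 against 9.63, 9.55 and 9.46, higher by 0.92 ± 0.13 (adjusted p = 0.000767). No labelled knockout array fell among the controls. Its paralog Sar1b, needed for chylomicron export in the gut, read 9.59, 9.53 and 9.48 against 9.82, 10.07 and 9.90 at room temperature, and 10.17, 10.27 and 10.23 against 10.16, 10.16 and 10.19 at 4 °C. The Sar1b arrays lay apart by genotype at room temperature and together at 4 °C, with differences of 0.39 ± 0.10 (adjusted p = 0.0661) and -0.06 ± 0.10 (adjusted p = 0.861). The exchange factor gene was called at both temperatures. Preb read 6.04, 6.18 and 6.22 against 6.61, 6.82 and 6.62 at room temperature, and 5.51, 5.73 and 5.80 against 6.99, 7.02 and 6.96 at 4 °C. The groups did not overlap, and the differences were 0.54 ± 0.11 (adjusted p = 0.0256) and 1.31 ± 0.11 (adjusted p = 8.31e-06). At room temperature the call of Preb was lost without any of 5 single arrays, with an adjusted p of up to 0.102 without the first control array at room temperature.

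The cage genes rose together. Sec31a read 8.44, 8.36 and 8.29 against 9.34, 9.47 and 9.34 at room temperature and 8.74, 8.66 and 8.57 against 9.53, 9.54 and 9.58 at 4 °C, differences of 1.02 ± 0.10 (adjusted p = 9.05e-05) and 0.89 ± 0.10 (adjusted p = 7.47e-05). Sec13 read 5.85, 5.99 and 5.99 against 6.81, 6.95 and 6.69, and 6.12, 5.78 and 6.26 against 7.31, 7.01 and 7.12, and was higher by 0.88 ± 0.14 (adjusted p = 0.00498) and 1.10 ± 0.14 (adjusted p = 0.000283). Both kept their arrays apart by genotype at each temperature. SEC16 is the scaffold of the exit site. Sec16a read 6.01, 6.09 and 6.08 against 6.51, 6.71 and 6.45 at room temperature and 6.47, 6.49 and 6.18 against 7.33, 7.30 and 7.15 at 4 °C. Sec16b was dimmer, at 4.02, 3.63 and 4.13 against 4.57, 4.67 and 4.77, and 3.76, 3.86 and 3.63 against 5.05, 4.50 and 4.88. Both separated the genotypes at each temperature. The scaffold genes were higher by 0.88 ± 0.12 (Sec16a, adjusted p = 0.000475) and 1.06 ± 0.16 (Sec16b, adjusted p = 0.00132) at 4 °C. At room temperature Sec16a differed by 0.50 (adjusted p = 0.0526) and Sec16b by 0.75 (adjusted p = 0.0346), a call that was lost without any of 7 single arrays (adjusted p of up to 0.123 without the third labelled knockout array at room temperature).

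Fusion with the next compartment needs SNARE proteins, here Sec22b, Bet1 and Stx5a, and the Golgi matrix protein GM130, the product of Golga2. Sec22b read 5.73, 5.51 and 5.74 in controls and 7.02, 7.12 and 6.97 in labelled knockouts at room temperature, then 6.12, 6.19 and 6.06 against 7.89, 7.93 and 7.59 at 4 °C. The arrays separated fully by genotype, with differences of 1.38 ± 0.12 (2.6-fold, adjusted p = 4.24e-05) and 1.68 ± 0.12 (3.21-fold, adjusted p = 1.85e-06). Stx5a read 7.12, 7.19 and 6.88 in controls and 7.95, 7.95 and 7.97 in labelled knockouts at 4 °C, and Bet1 read 5.22, 5.53 and 6.01 against 6.91, 6.78 and 6.36. Both stood apart there. Stx5a and Bet1 were called at 4 °C, by 0.89 ± 0.14 (adjusted p = 0.00165) and 1.10 ± 0.24 (adjusted p = 0.0169). Bet1 lost its call without any of 4 single arrays, with an adjusted p of up to 0.0801 without the first control array at 4 °C. Golga2 differed by 0.42 ± 0.14 (adjusted p = 0.185) and 0.31 ± 0.14 (adjusted p = 0.284).

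The COPI coat, or coatomer, is recruited to Golgi membranes as 1 preformed complex. Of its 8 subunit genes, 6 were higher at room temperature (median 1.08) and 7 at 4 °C (median 1.24). Copb2, the beta-prime subunit, read 7.80, 7.96 and 7.96 in controls and 9.07, 9.58 and 9.46 in labelled knockouts at room temperature, and 7.93, 7.78 and 7.91 against 9.53, 9.43 and 9.32 at 4 °C. All labelled knockout arrays lay more than 1 log2 unit above all controls, and the differences were 1.46 ± 0.13 (2.76-fold, adjusted p = 6.22e-05) and 1.55 ± 0.13 (2.93-fold, adjusted p = 9.99e-06).

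Copa, the alpha subunit, was 8.04, 8.06 and 8.23 in controls and 9.18, 9.42 and 9.35 in labelled knockouts at room temperature, higher by 1.21 ± 0.10 (adjusted p = 4.45e-05). At 4 °C it was 8.35, 8.26 and 8.25 against 9.60, 9.51 and 9.43, higher by 1.23 ± 0.10 (adjusted p = 1e-05). The labelled knockout arrays lay above the controls at both temperatures for Copa, Cope, Arcn1 and Copb1. Cope (epsilon) ranged from 6.98 to 7.40 over the 6 control arrays and from 8.01 to 8.56 over the 6 labelled knockout arrays, and Arcn1 (delta) from 7.44 to 7.94 and from 8.48 to 9.10. Cope was higher by 1.08 and 1.35, Arcn1 by 1.07 and 1.13, and Copb1 (beta) by 0.80 and 0.67, with adjusted p-values between 2.97e-05 and 0.00727. Copz1 (zeta) read 8.01, 8.41 and 8.26 against 8.90, 9.02 and 8.39 at room temperature, where the groups overlap, and 8.02, 7.81 and 8.16 against 9.31, 9.21 and 9.24 at 4 °C, where they do not. Copz1 differed by 0.54 ± 0.16 at room temperature (adjusted p = 0.142) and was higher by 1.26 ± 0.16 at 4 °C (adjusted p = 0.000416). The gamma subunit has a pair of genes. Copg1 lay between 6.78 and 6.86 in controls and between 7.92 and 8.04 in labelled knockouts at room temperature, and was higher by 1.17 ± 0.10 (adjusted p = 3.93e-05), and by 1.46 ± 0.10 at 4 °C (adjusted p = 1.37e-06). Copg2 read 6.87, 6.70 and 6.73 against 6.58, 7.24 and 6.57 at room temperature, and 6.26, 5.24 and 6.59 against 6.44, 6.55 and 6.78 at 4 °C. It scattered more than Copg1, with overlapping groups, and differed by 0.03 ± 0.28 (95% interval -0.58 to 0.65) and 0.56 ± 0.28 (-0.05 to 1.18).

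Coatomer binding is driven by the Arf1 cycle, and its 3 genes among the 42 were called higher at each temperature. Of the other GTPase-activating genes, Arfgap1 differed by 0.58 at room temperature (adjusted p = 0.052) and was higher by 0.71 at 4 °C (adjusted p = 0.00725), and Arfgap2 differed by 0.06 (adjusted p = 0.903) and -0.15 (adjusted p = 0.58). Arf1 itself read 10.01, 10.02 and 10.08 in controls and 10.93, 10.98 and 11.15 in labelled knockouts at room temperature, and 10.21, 10.29 and 10.31 against 11.06, 10.95 and 11.10 at 4 °C. The groups stood apart, with differences of 0.98 ± 0.10 (adjusted p = 0.000138) and 0.77 ± 0.10 (adjusted p = 0.000328). Gbf1, the exchange factor that activates it, was higher by 1.01 ± 0.16 (adjusted p = 0.00563) and 0.81 ± 0.16 (adjusted p = 0.00997). Arfgap3, a GTPase-activating protein that ends the cycle, read 5.15, 4.65 and 4.80 against 5.78, 5.85 and 6.09, and at 4 °C 5.38, 5.46 and 5.43 against 6.97, 7.02 and 7.06. Its groups did not overlap, and it was higher by 1.04 ± 0.13 (adjusted p = 0.000984) and 1.59 ± 0.13 (3.02-fold, adjusted p = 7.78e-06).

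KDEL receptors capture ER chaperones that have escaped to the Golgi and hand them to COPI. Kdelr2 read 7.27, 7.26 and 7.52 in controls and 8.96, 9.38 and 9.40 in labelled knockouts at room temperature, and 7.19, 7.50 and 7.56 against 9.58, 9.66 and 9.81 at 4 °C. The lowest labelled knockout array lay far above the highest control, and the differences were 1.90 ± 0.15 (3.72-fold, adjusted p = 2.29e-05) and 2.26 ± 0.15 (4.8-fold, adjusted p = 1.19e-06). Kdelr3, the dimmest of the 42 probe sets used, read 2.38, 2.13 and 2.54 against 3.14, 3.51 and 3.19 at room temperature, and 2.82, 2.93 and 2.44 against 4.17, 3.65 and 3.95 at 4 °C. It too separated the genotypes, and was higher by 0.93 ± 0.17 (adjusted p = 0.0161) and 1.20 ± 0.17 (adjusted p = 0.000974). Its room temperature call was lost without any of 3 single arrays, with an adjusted p of up to 0.0739 without the second control array. Kdelr1 read 6.07, 6.12 and 6.01 against 6.16, 6.42 and 5.90 at room temperature, and 5.93, 5.88 and 5.77 against 6.18, 6.07 and 6.27 at 4 °C. Its groups overlapped at room temperature and not at 4 °C. Kdelr1 differed by 0.10 (95% interval -0.18 to 0.38) and 0.31 (0.03 to 0.59; adjusted p = 0.225).

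**Figure D2:**
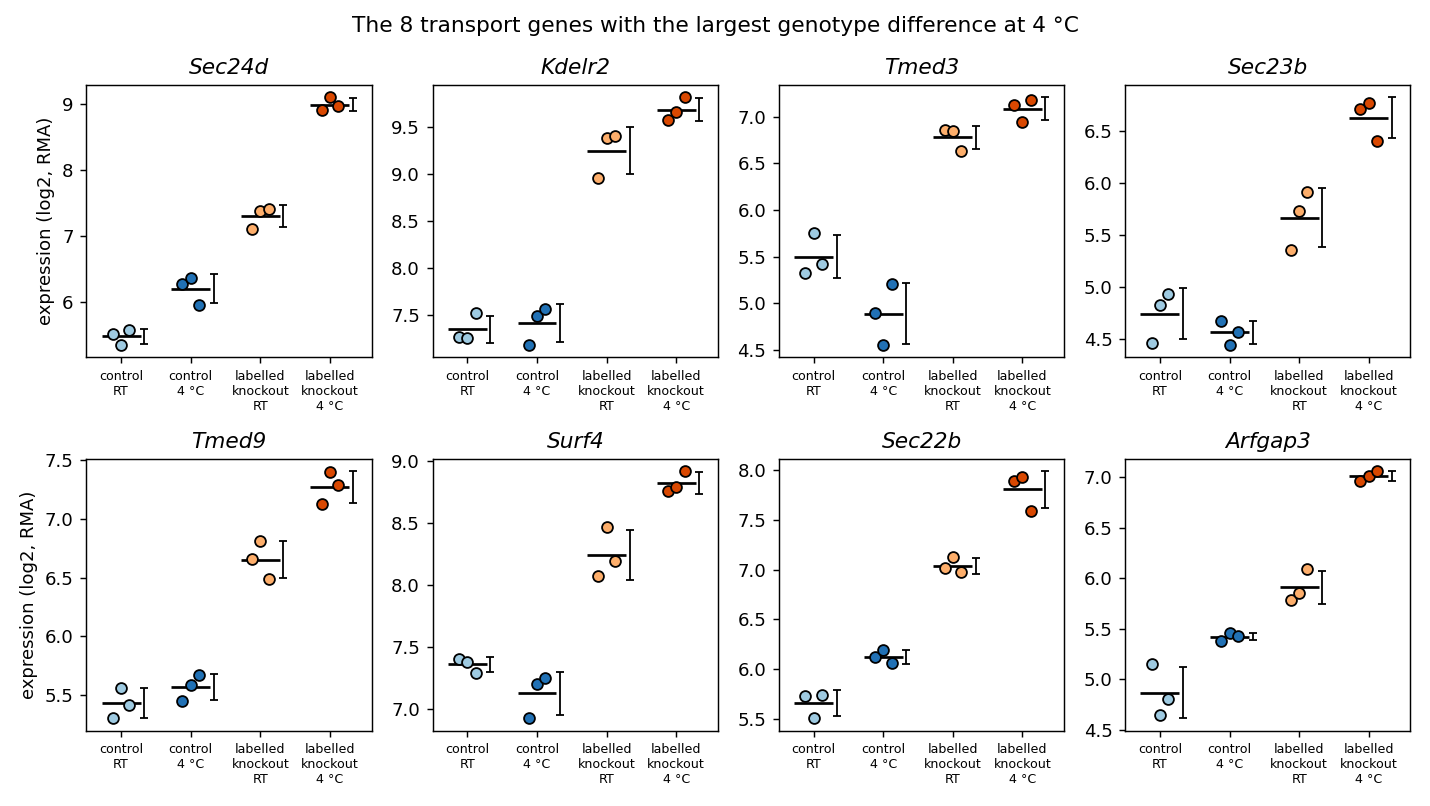
Log2 intensity on each of the 12 arrays for the 8 members with the largest genotype difference at 4 °C, with the group mean (line) and SD (bar) of 3 arrays in each of the 4 groups. For Sec24d and Kdelr2 every labelled knockout array (7.10 to 9.10 and 8.96 to 9.81) lies above every control array (5.36 to 6.37 and 7.19 to 7.56).

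Cargo receptors link soluble proteins in the ER lumen to the coats. Of 11 such genes, 5 were higher at room temperature (median 0.56) and 8 at 4 °C (median 0.93). The p24 protein gene Tmed3 read 5.32, 5.76 and 5.42 in controls and 6.86, 6.84 and 6.63 in labelled knockouts at room temperature, and 4.90, 4.56 and 5.21 against 7.13, 6.95 and 7.18 at 4 °C. The groups stood apart at both temperatures, by 1.28 ± 0.16 (2.42-fold, adjusted p = 0.00119) and 2.19 ± 0.16 (4.57-fold, adjusted p = 3.85e-06). Tmed9, another p24 gene, read 5.31, 5.56 and 5.42 against 6.66, 6.81 and 6.49 at room temperature, and 5.45, 5.59 and 5.67 against 7.13, 7.40 and 7.29 at 4 °C. It too stood apart by genotype, and was higher by 1.22 ± 0.12 (adjusted p = 0.000138) and 1.70 ± 0.12 (3.26-fold, adjusted p = 2.29e-06).

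Surf4, which exports many soluble secretory proteins, read 7.41, 7.38 and 7.29 against 8.07, 8.47 and 8.19 at room temperature, and 6.93, 7.21 and 7.25 against 8.75, 8.79 and 8.92 at 4 °C. These groups did not overlap, and Surf4 was higher by 0.88 ± 0.13 (adjusted p = 0.00249) and 1.69 ± 0.13 (3.23-fold, adjusted p = 3.51e-06). The products of Lman1 and Mcfd2 together carry coagulation factors V and VIII. At 4 °C Lman1 read 7.44, 7.24 and 7.83 against 8.90, 8.56 and 8.63, and Mcfd2 read 5.45, 5.08 and 5.21 against 6.77, 6.49 and 6.42. Neither pair of groups overlapped, and the genes were higher by 1.19 ± 0.15 (adjusted p = 0.000328) and 1.31 ± 0.15 (adjusted p = 0.000131). At room temperature Lman1 differed by 0.71 (adjusted p = 0.0335), lost without any of 7 single arrays (adjusted p of up to 0.113 without the second labelled knockout array at room temperature), and Mcfd2 by 0.60 (adjusted p = 0.0702).

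The remaining p24 members were Tmed10 and Tmed2. Tmed10 ranged from 8.38 to 8.83 over the control arrays and from 9.18 to 9.52 over the labelled knockout arrays. It was higher by 0.56 ± 0.11 (adjusted p = 0.0228) and 0.93 ± 0.11 (adjusted p = 0.000205), the first of which was lost without any of 4 single arrays (adjusted p of up to 0.0864 without the second labelled knockout array at room temperature). Tmed2 and Lman2, the latter a lectin receptor, were called at 4 °C alone, by 0.69 (adjusted p = 0.00563) and 0.62 (adjusted p = 0.00511). The call of Tmed2 was not kept in every alternative, and its dimmer probe set differed by 0.21 at 4 °C. The products of Ergic1, Ergic2 and Ergic3 cycle between the ER and the Golgi, and none of these genes was called for genotype. Their differences were 0.45, 0.31 and -0.15 at room temperature and -0.12, 0.08 and 0.28 at 4 °C, with adjusted p-values between 0.184 and 0.799. Ergic3 at room temperature was the one negative difference among the 42 genes there, and at 4 °C Sar1b, Sec24c and Ergic1 were negative, none of them called.

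Members of several families differed from each other in their response to genotype. The test of these pairs was added after the values had been seen. For each of 13 pairs, the difference between 2 paralogs in their log2 response to genotype, averaged over both temperatures, was set against all 400 reassignments of genotype labels within temperature (exact two-sided permutation test; smallest possible p = 0.005, p-values adjusted over the 13 pairs). Sec24d exceeded Sec24a by 1.63, Sec24b by 2.26 and Sec24c by 2.11, each with an adjusted p of 0.00813 in this permutation test. By the same permutation test Sec24a exceeded Sec24b by 0.63 (adjusted p = 0.00813) and Sec24c by 0.48 (adjusted p = 0.039), the latter lost without any of 9 single arrays (adjusted permutation p of up to 0.091, without the first or the second control array at 4 °C). Sec24b and Sec24c differed by -0.15 (adjusted permutation p = 0.36).

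Kdelr2 exceeded Kdelr1 by 1.88 (adjusted permutation p = 0.00813). The Kdelr3 probe set lay near the array medians of 2.03 to 2.09 in controls at room temperature (2.13 to 2.54), so its distance from its paralogs, 1.02 below Kdelr2 and 0.86 above Kdelr1, is not read as a paralog difference. Sar1a exceeded Sar1b by 0.80 (adjusted permutation p = 0.00813) and Copg1 exceeded Copg2 by 1.01 (adjusted permutation p = 0.0144). Sec16a and Sec16b differed by -0.21 (adjusted permutation p = 0.136). For Sec23a and Sec23b the averaged difference was -0.22 (adjusted permutation p = 0.36), made of 0.43 at room temperature and -0.88 at 4 °C.

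**Figure D3:**
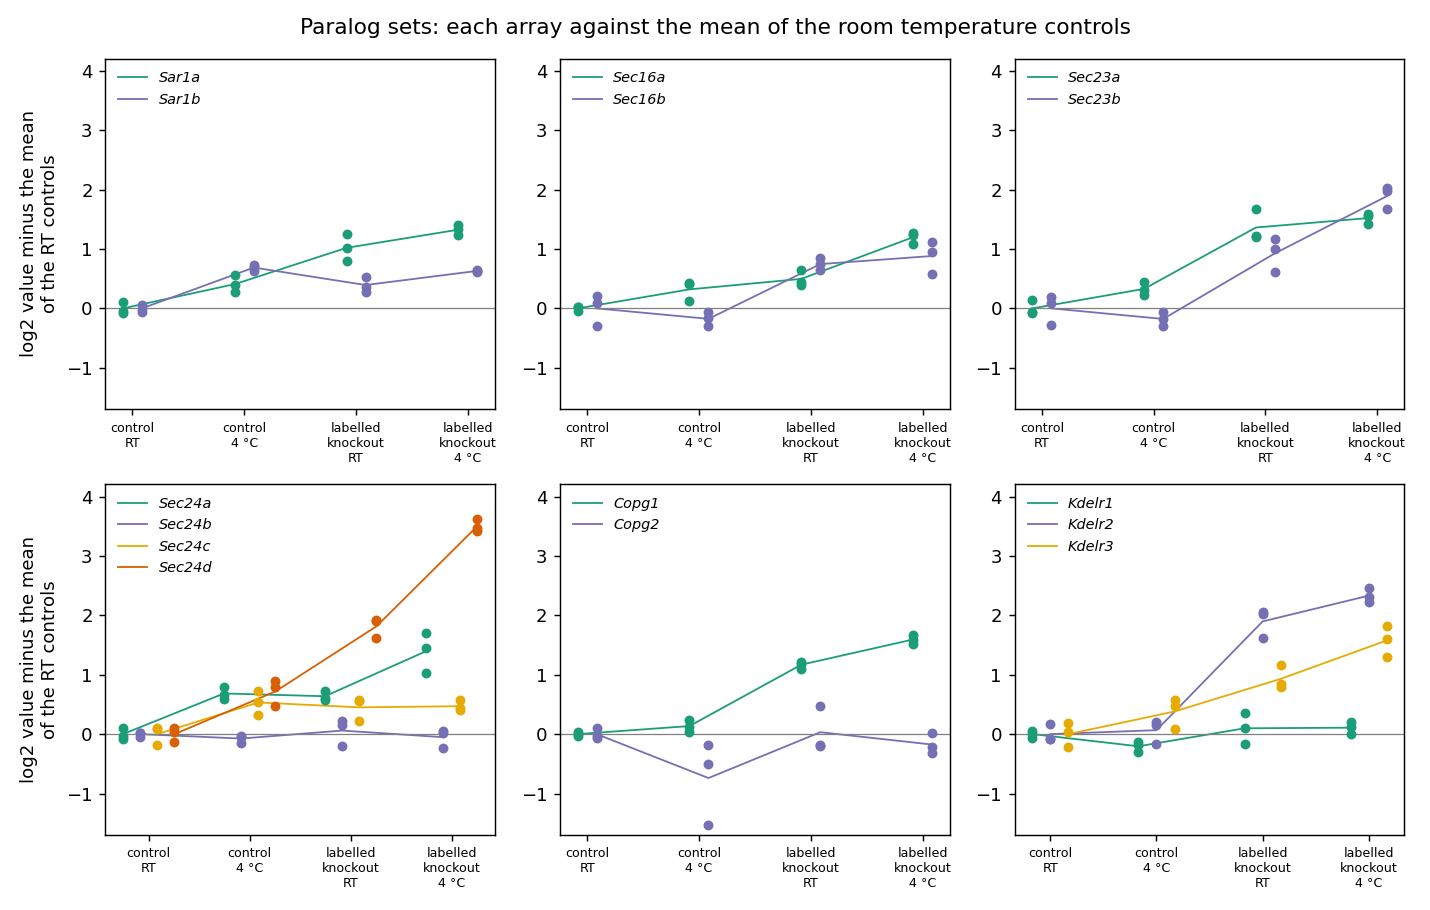
Log2 value of each paralog on each array minus that gene's mean over the room temperature controls, by group, with a point for each of 3 arrays and lines through the group means. Among the SEC24 genes Sec24d stands highest in both labelled knockout groups, 1.81 and 2.78 above the controls of the same temperature, while Sec24b (0.06 and 0.02) stays near 0.

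A wider list held 56 other genes of ER-Golgi transport, of which 52 were measured. At room temperature 12 were higher and 1 was lower (median 0.23), and at 4 °C 19 were higher and 1 was lower (median 0.21). The tether gene Uso1 (p115) was higher by 1.35 ± 0.11 (adjusted p = 4.1e-05) and 1.93 ± 0.11 (adjusted p = 5.12e-07). Yipf5 was higher by 1.37 and 1.54, the SNARE regulator Scfd1 by 1.21 and 1.46, the GTPase gene Arf4 by 1.05 and 1.24, and Yif1a by 1.02 and 0.88. The lower gene at both temperatures was Sec31b, the paralog of Sec31a, which fell by 0.64 at room temperature (adjusted p = 0.0469) and by 1.24 at 4 °C (adjusted p = 0.000163). The first of these calls was lost without any of 9 single arrays, with an adjusted p of up to 0.16 without the second control array at room temperature.

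Coats that work elsewhere in the cell were listed for comparison. Of 29 measured genes of the clathrin, adaptor and retromer coats, 1 was higher at room temperature (Ap2a2, by 0.52) and 0 were lower, with a median of 0.07. At 4 °C 0 were higher and 2 were lower (Gga2, which fell by 0.84, and Ap4m1, which fell by 0.66), with a median of -0.09. Ap2a2 was called with an adjusted p of 0.0312 and lost its call without any of 5 single arrays, with up to 0.105 without the second labelled knockout array at room temperature. Ap4m1 (adjusted p = 0.0432) lost it without any of 8, with up to 0.13 without the first labelled knockout array at 4 °C.

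**Figure D4:**
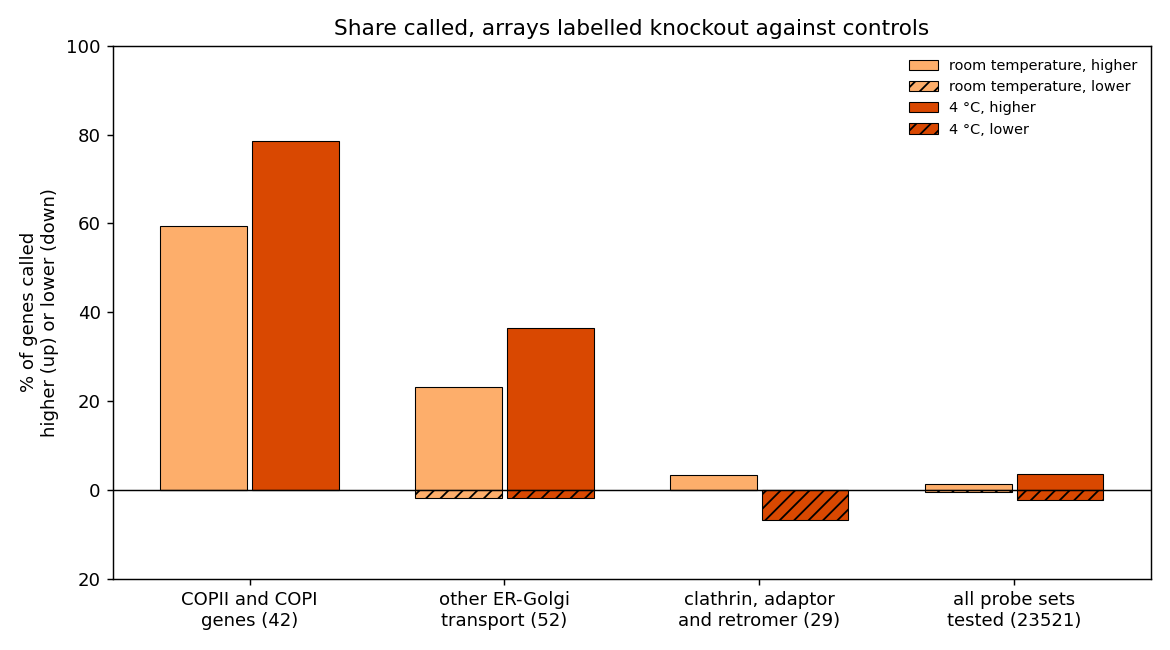
Percent of the measured genes that were higher or lower in labelled knockout than in control arrays at an adjusted p under 0.05, for the 42 transport genes, 52 other genes of ER-Golgi transport, 29 genes of other coats and all probe sets, at room temperature and at 4 °C. The 42 transport genes reach 59.5% and 78.6% higher, against 1.29% and 3.61% of all probe sets. The lists were chosen with earlier results of these data known.

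Transcription factors that act on secretory genes were examined as a list of 10. At room temperature 3 were higher: Xbp1, the factor made active by IRE1 splicing, by 1.47 ± 0.14 (adjusted p = 9.6e-05), the stress factor gene Ddit3 by 1.22 ± 0.14 (adjusted p = 0.000555) and Creb3 by 0.78 ± 0.10 (adjusted p = 0.00163). At 4 °C 6 were higher, and the 5 with the largest differences were Xbp1 (2.07), Creb3l2 (1.70), Ddit3 (1.36), Creb3 (1.04) and Atf6 (1.03), with adjusted p-values between 1.42e-06 and 0.00343. The arrays measure total Xbp1 RNA and do not show its splicing.

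Between the control groups some of the 42 genes were higher in the cold and others lower. At 4 °C against room temperature 9 were higher and 2 were lower, where 4.85% of all probe sets were higher and 6.23% lower. The higher genes were Sar1b (0.69 ± 0.10, adjusted p = 0.000945), Ergic1 (0.88 ± 0.15, adjusted p = 0.00236), Sec24d (0.72 ± 0.13, adjusted p = 0.00409), Copb1, Sec24a, Arfgap3, Sec22b, Ergic2 and Sec24c. The lower genes were Preb (-0.47 ± 0.11, adjusted p = 0.015) and Tmed3 (-0.61 ± 0.16, adjusted p = 0.0314). Ergic1 read 7.95, 8.54 and 8.12 in controls at room temperature and 9.25, 8.91 and 9.10 at 4 °C, and neither its groups nor those of Sar1b overlapped.

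These control counts rest on the placing of single arrays. Without the array of conflicting labels 7 genes were called, and 0 when it was moved to the 4 °C group. Without the first or without the second control array at 4 °C 6 were called in each case. With the array moved, Sar1b had an adjusted p of 0.265 and Ergic1 of 0.299. Sar1b kept its call when any single array was left out, with an adjusted p of up to 0.00558.

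In the labelled knockouts 13 of the 42 genes were higher at 4 °C and 0 were lower, where 4.32% of all probe sets were higher and 4.7% lower. Sec24d rose by 1.69 ± 0.13 (3.22-fold, adjusted p = 2.3e-05), Arfgap3 by 1.11 ± 0.13 (adjusted p = 0.00037) and Sec23b by 0.96 ± 0.17 (adjusted p = 0.00335). The other genes that rose were Sec22b, Stx5a, Sec24a, Sec16a, Kdelr3, Tmed9, Surf4, Copb1, Copg1 and Arcn1, by 0.40 to 0.77. Copb1, Arcn1, Kdelr3, Copg1 and Surf4 lost their calls without any of 5, 5, 4, 3 and 1 single arrays, with adjusted p-values of up to 0.11 (first labelled knockout array at room temperature left out), 0.14 (the second at 4 °C), 0.144 and 0.0668 (the first at 4 °C for both) and 0.0502 (the third at 4 °C). In both genotypes 5 genes were called, Sec24a, Sec24d, Sec22b, Copb1 and Arfgap3.

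**Figure D5:**
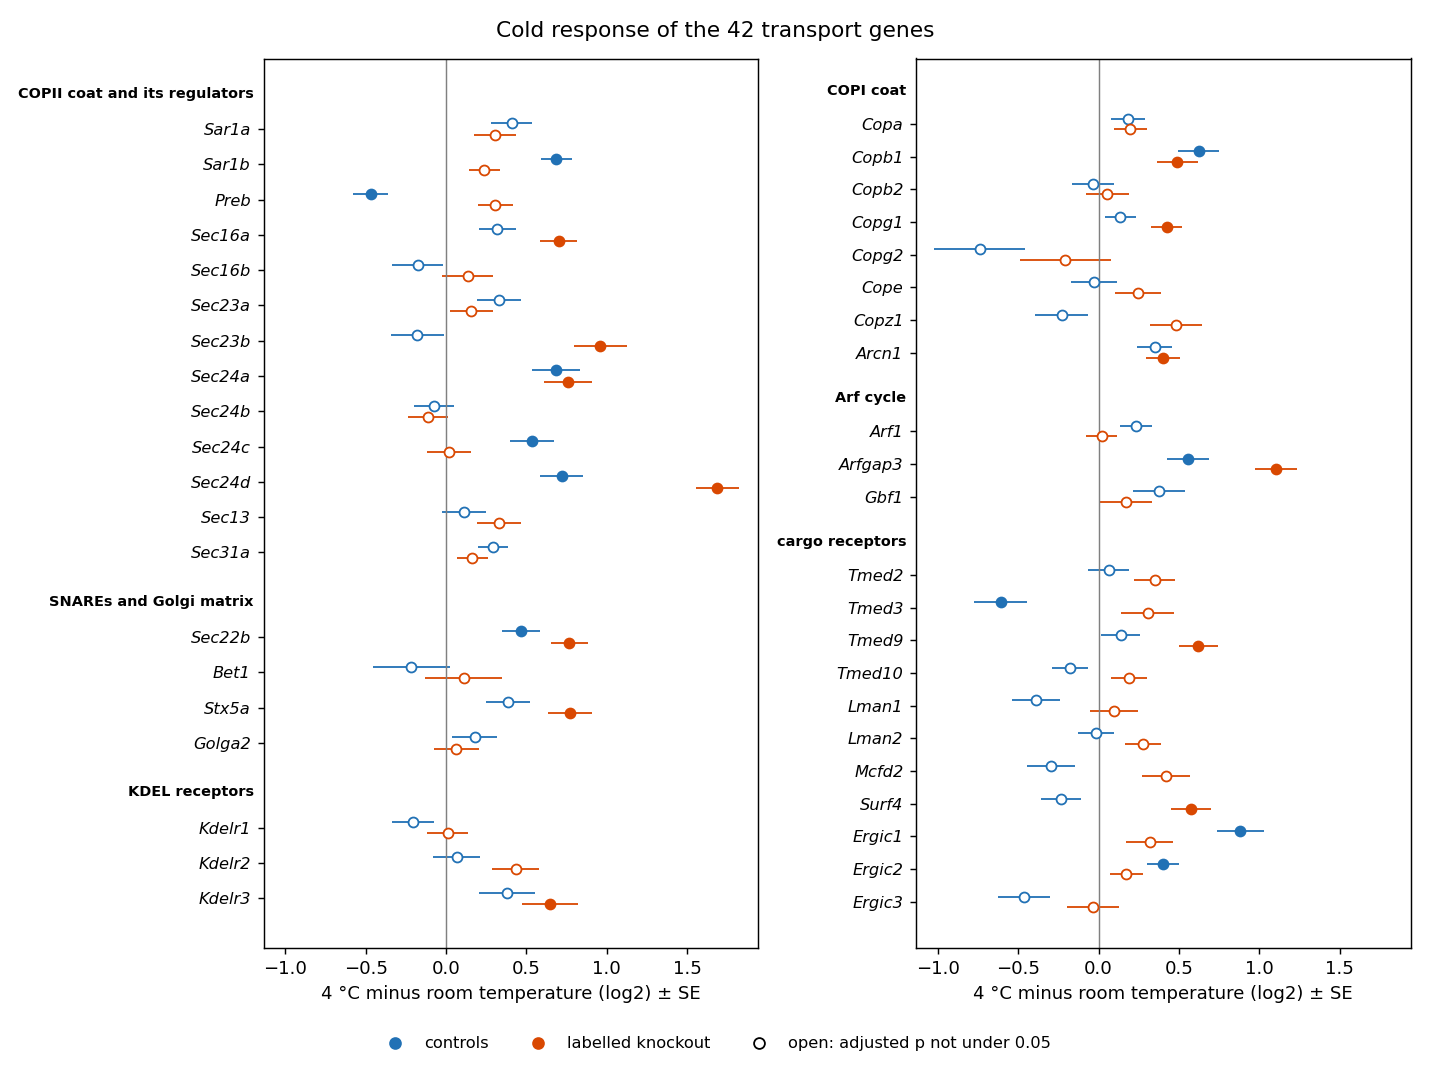
Difference between 4 °C and room temperature (log2, with its SE) for each of the 42 transport genes in control arrays and in labelled knockout arrays (n = 3 a group). Filled points have an adjusted p under 0.05: 11 genes in controls, of which Preb and Tmed3 lie left of 0, and 13 in labelled knockouts, all right of 0.

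Whether the response to cold differed by genotype was tested as the interaction. None of the 42 genes passed (0.306% of all probe sets did), with a median interaction of 0.29, and 15 had an unadjusted limma p under 0.05, 12 positive and 3 negative, where 9.77% of all probe sets had one. The lowest adjusted p was that of Sec24d, at 0.97 ± 0.19 (adjusted p = 0.0581). Preb followed with 0.77 ± 0.15 (adjusted p = 0.064), Sec23b with 1.14 ± 0.24 (adjusted p = 0.075) and Surf4 with 0.81 ± 0.18 (adjusted p = 0.0933). In controls these 4 genes differed with cold by 0.72, -0.47, -0.18 and -0.23, and in labelled knockouts by 1.69, 0.31, 0.96 and 0.58. The comparisons share arrays, so these values are set side by side as descriptions. Without the third control array at 4 °C Preb alone passed, with an adjusted p of 0.0495. Its adjusted p was 0.162 without the second labelled knockout array at 4 °C. With the array of conflicting labels moved to the 4 °C group it was 0.568.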

How the data were processed

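Brown adipose tissue RNA from 12 mice was hybridised to 1 array each. The deposited values are log2 intensities normalized by the authors with RMA, per the submitters' processing notes. Its version was not stated. The table held 41345 probe sets (0.27 to 13.02), of which 23521 had 1 gene symbol, 1814 several and 16010 none in the platform annotation.

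All 23521 were fitted with limma 3.58.1 in R 4.3.3 on 4 group means, with Benjamini-Hochberg adjustment over all of them and a threshold of 0.05. Errors are SE, with n = 3 arrays a group, and the median SE of a comparison was 0.14. The code was tested on simulated data. The members and lists were chosen with earlier results of these data known. All members were named, and of each other list at most the 5 called genes with the largest difference in a comparison. Arfgap1 and Arfgap2 were named outside this rule, beside Arfgap3. Alternatives were leaving out each array, the array of conflicting labels moved, only the 6 arrays compared, arrays centred or quantile-normalized again, a filter on dim probe sets, the mean of a gene's probe sets, also the probe sets lacking a symbol, a variance trend with a robust fit, a muscle covariate and the replicate number as a block.

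Macrophage, endothelial, fibroblast, T cell, neutrophil and mast cell, Schwann cell, red blood cell and B and plasma cell markers had 0 calls for genotype. The skeletal muscle markers too had 0 calls, with a median difference of -2.30 at room temperature. A lack of calls therefore does not show equal shares of these cells. Of 12 brown adipocyte markers only Pparg was called for genotype, lower in labelled knockouts than in controls at 4 °C (-0.78, adjusted p = 0.0144). Calls of markers for cold are not listed here. Protein sequences were not used here.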

Additional observations from a re-analysis of the deposited data

Results flagged for a closer look

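Creb3l2, a transcription factor gene whose product acts on COPII genes in cartilage cells, was the only gene discussed here whose response to cold differed by genotype, by the interaction test over all probe sets. It read 5.44, 5.37 and 5.38 in controls at room temperature and 5.01, 4.77 and 4.82 at 4 °C, and 5.60, 5.65 and 5.46 in labelled knockouts at room temperature and 6.36, 6.64 and 6.71 at 4 °C. It was lower with cold on all control arrays (-0.53 ± 0.12) and higher on all labelled knockout arrays (1.00 ± 0.12), an interaction of 1.53 ± 0.16 (limma, adjusted p = 0.00169). The adjusted p ranged from 0.00146 to 0.0613 over the alternatives, and the call was lost only with the array of conflicting labels moved to the 4 °C group (1.41). The call for cold in controls alone was also lost without the second control array at 4 °C (adjusted p = 0.0507).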

How the results depend on the processing

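The genotype counts stayed within 1.5 times their value under every alternative run: 19 to 26 of 42 at room temperature and 31 to 33 at 4 °C with single arrays left out. Of the genes called, 17 of 25 at room temperature and 30 of 33 at 4 °C kept their call in all 22 alternatives, as did 7 of 13 for cold in labelled knockouts and 0 of 11 for cold in controls. The count for cold in controls was 6 to 14 with single arrays left out, 5 with only the 6 arrays compared and 0 with the array of conflicting labels moved. The cause was not tested. The interaction count was 0 to 1 with single arrays left out and 0 with the array of conflicting labels moved. It was 1 (Sec24d) both among brighter probe sets and with a variance trend and robust fit. Over all alternatives, among values of single genes and paralog pairs, 293 lost and 54 gained a call, 7356 did neither and none reversed. Replicate numbers did not pair the samples: same-number correlations ran from -0.18 to 0.16 over 18 pairs, and with the replicate block the counts were 24, 33, 10 and 12 for genotype at room temperature and 4 °C and cold in controls and labelled knockouts. With 3 arrays a group, differences of 4 times their SE could miss the threshold, as those of Sec24a (0.64 ± 0.15) and Sec16a (0.50 ± 0.12) did at room temperature.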

Other observations

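With the 42 genes left out, the core TGACGTGG lay in the promoters of 10 of 213 genes called higher in labelled knockouts at room temperature (4.69%) and 20 of 632 at 4 °C (3.16%), against 138 of 16952 genes tested with a promoter (0.814%). With the 42 included the counts were 18 of 236 (7.63%), 29 of 661 (4.39%) and 147 of 16990 (0.865%). These are counts of letters in a fixed window, not matched for base content.

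Second probe sets of the members gave mixed values. The dimmer Arf1 probe set differed by genotype by 0.77 at room temperature and 0.86 at 4 °C, and that of Copz1 by 0.79 and 0.85. For Gbf1 the dimmer probe set, with a mean of 2.14, differed by 0.31 and 0.22, where the one used differed by 1.01 and 0.81. The second Tmed2 probe set differed by 0.01 and 0.21 (0.41 and 0.69 for the one used) and that of Tmed9, with a mean of 2.14, by 0.19 and 0.81 (1.22 and 1.70). For Tmed10 a probe set with a mean of 3.75 differed by 0.69 and 1.26 and one with a mean of 1.64 by -0.06 and 0.02 (0.56 and 0.93).

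Cold in controls was also read in the other lists. Among 52 other ER-Golgi genes 9.62% were higher and 1.92% lower, and among 29 genes of other coats 13.8% and 3.45%, against 4.85% and 6.23% of all probe sets, and nothing is read from these shares. Cnih4 (0.77), Yipf5 (0.53), Rab1a (0.53) and Tmed5 (0.50) were among those that rose and Copz2 fell by 0.52, while Ap1g1 (0.55), Ap3d1 (0.47), Vps26a (0.41) and Cltc (0.40) rose and Vps26b fell by 0.66, each at an adjusted limma p under 0.05. None of these 10 calls held with the array of conflicting labels moved to 4 °C.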
